A study of Mus musculus with 8 samples.

Results

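The transcription factors of mesothelium and visceral mesoderm followed here were Wt1, Bnc1, Bnc2, Gata4, Gata5, Gata6, Tbx18, Tcf21 and Isl1, 9 of the 55358 genes in the deposited tables. They were chosen by name, after earlier results of these libraries had shown mesothelial genes to be high in the knockout. The genotype difference of the factors is therefore given as a description: its calls and SEs come from the same fit as the IL-6 tests, but no p-value is given and nothing is read from them. Of the 9, 7 reached 1 FPKM (fragments scaled to transcript length and to library depth) in at least 2 of the 8 libraries and were tested among 13693 genes. Gata5 and Isl1 did not, and are given by their levels.

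The cells were mouse embryonic fibroblasts (MEFs), connective-tissue cells cultured from embryos, either wild type (WT) or Arid5a-/- (KO). Arid5a encodes an RNA-binding protein that stabilises certain inflammatory transcripts. Each genotype was kept for 24 h without IL-6 or with 100 ng/ml of this cytokine, giving 4 groups of 2 libraries, and the series asked about long non-coding RNAs of the IL-6 and Arid5a axis with breast cancer in view. The labels give no sex, stage, number of embryos or cell clone, and leave unsaid whether paired libraries are separate cultures. The p-values therefore cover the spread between libraries alone, and that spread may be technical.

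The mesothelium is the sheet of flat epithelial cells that covers the heart, lungs, gut, gonads and body wall. Its cells, the epicardium of the heart among them, keep both epithelial and mesenchymal genes and can give rise to fibroblasts and smooth muscle through an epithelial-to-mesenchymal transition. WT1, a zinc finger protein, is the classical marker of this layer. The basonuclins, the GATA proteins 4 to 6, TBX18 and TCF21 are known from epicardium, gonad and visceral mesoderm, and ISL1 from cardiac progenitors.

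The 8 libraries summed to 536816 to 584995 FPKM and held 12570 to 12699 genes at 1 FPKM or more. Arid5a was at 15.9 to 31.0 FPKM in the WT libraries and at 5.51 to 8.47 in the KO libraries, so it was lower but not at 0 in the libraries labelled KO; the labels do not give the deleted part of the gene. Other genes separated the genotypes as well. Xist, the RNA that silences one X chromosome in female cells, was at 55.2 to 61.0 FPKM in KO and at most 0.00562 in WT. Ddx3y, a Y-linked helicase gene, was at 34.6 to 36.6 FPKM in WT and at most 0.00746 in KO. Genotype, sex and the part of the embryo the cells came from cannot be told apart in these libraries, and in bulk RNA neither can fewer cells of a type and less RNA per cell.

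Wt1 (chromosome 2, 105126529 to 105173616, plus strand, GRCm38) was listed at 0 in all 4 WT libraries. It was at 113.4 and 109.1 FPKM in KO and at 106.4 and 114.4 in IL-6-treated KO. The WT and KO libraries did not overlap, while the KO libraries without and with IL-6 did. The mean of the untreated KO libraries lay above 93.4% of the genes at 1 FPKM or more there. On the log2(FPKM + 1) scale used for all differences below, Wt1 was higher in KO by 6.81 ± 0.057 (SE) without IL-6 and by 6.80 ± 0.057 with it.

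A level of 0 still has a limit set by depth. The files hold no counts, but low values lay on steps of whole fragments, which fitted 37200000 to 46900000 fragments per library. Up to 3 fragments could be missed, equal to 0.0558 to 0.0615 FPKM of the Wt1-204 transcript in the WT libraries, counting error only. The KO values of Wt1 stand for about 7919 to 10110 fragments. None of 10 housekeeping genes was listed at 0 in any library. Their lowest level was 18.3 FPKM, far above the limit of 3 fragments, so they do not test it.

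Wt1 makes several proteins through an alternative end of exon 9 and an optional exon 5, and 3 of its 9 annotated transcripts carried nearly all of the KO signal. The alternative end of exon 9 adds 9 bases (chr2:105170010-105170018) that encode the residues lysine, threonine and serine (KTS) between the last zinc fingers. The form without KTS is known mainly as a DNA-binding transcription factor, and the form with KTS binds DNA less well and is found with RNA processing proteins. Exon 5 (chr2:105144142-105144192, 51 bases) adds a further stretch of protein. The spliced sequences around both choices, read from the GRCm38 genome along the GENCODE transcripts, are shown because the isoform shares rest on them, with the optional bases in capitals.

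Wt1-205, exon 9 to 10 with KTS: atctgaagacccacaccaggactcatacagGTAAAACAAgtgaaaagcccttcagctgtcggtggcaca
Wt1-204, exon 9 to 10 without KTS: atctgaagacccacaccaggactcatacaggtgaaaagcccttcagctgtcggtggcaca
Wt1-205, exon 4 to 6 with exon 5: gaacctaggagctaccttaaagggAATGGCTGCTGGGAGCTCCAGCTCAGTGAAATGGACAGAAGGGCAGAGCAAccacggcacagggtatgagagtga
Wt1-204, exon 4 to 6 without exon 5: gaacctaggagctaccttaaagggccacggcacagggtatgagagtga

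Wt1-204, which starts at the upstream first exon and lacks both exon 5 and KTS, was the most abundant transcript, at 55.9 and 54.5 FPKM in KO and 48.8 and 57.7 in IL-6-treated KO. Wt1-205, with the upstream first exon, exon 5 and KTS, was at 27.9 and 28.9 FPKM in KO and 28.1 and 31.0 in IL-6-treated KO. Wt1-201, which starts at a downstream first exon (chr2:105130883-105131152) and has KTS but not exon 5, was at 25.8 and 21.8 FPKM in KO and 25.9 and 22.3 in IL-6-treated KO. The order Wt1-204, Wt1-205, Wt1-201 held in each of the 4 KO libraries.

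**Figure D1:**
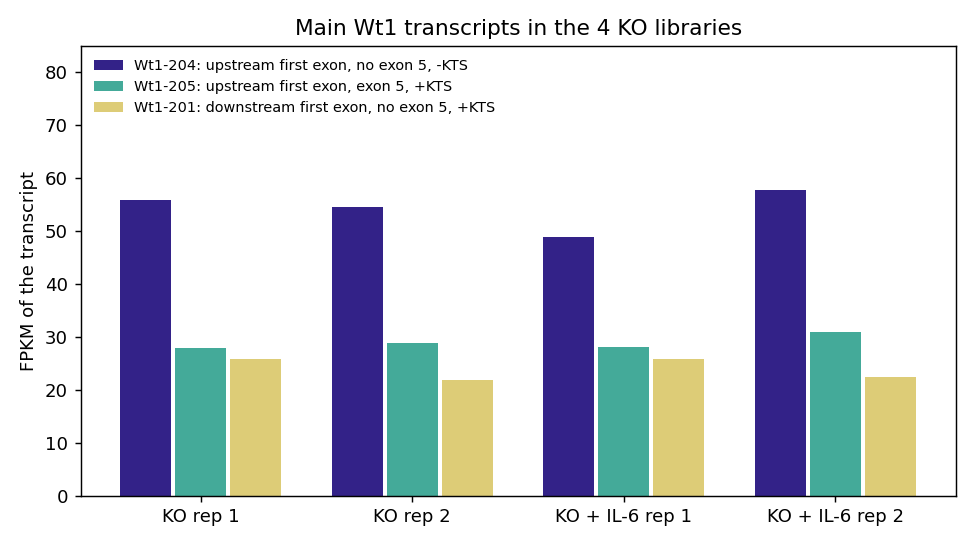
FPKM of the 3 main Wt1 transcripts in each of the 4 KO libraries; each bar is 1 transcript in 1 library and the axis starts at 0. Wt1-204, without KTS, stands at 48.8 to 57.7 FPKM, above Wt1-205 and Wt1-201 in each library; the WT libraries are not drawn because every Wt1 transcript is listed at 0 there.

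Summed over the 7 coding transcripts, forms with KTS made up 49.4% ± 0.469 (SD, n = 2) of Wt1 in KO and 51.2% ± 3.27 in IL-6-treated KO. By these estimates the forms with and without KTS were near equal in level. Nearly all of the share without KTS lay on Wt1-204, a transcript of 1418 bases. No annotated transcript has the upstream first exon and exon 5 but lacks KTS, so the KTS and exon 5 shares also depend on the annotation. Transcripts that keep exon 5 held 26.3% ± 1.38 in KO and 27.1% ± 0.479 in IL-6-treated KO, and those from the upstream first exon 77.9% ± 1.95 and 77.8% ± 3.43. For each of these 3 splits the libraries without and with IL-6 overlapped. Cufflinks assigned shared fragments to transcripts by a model, so these shares carry an error that the spread between libraries does not show in full.

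Wt1os, an antisense RNA whose start lies 19 bases from that of Wt1 on the other strand and that does not overlap it, was also listed at 0 in the 4 WT libraries. It was at 2.91 and 2.81 FPKM in KO and 4.24 and 3.15 in IL-6-treated KO, well below Wt1. The library preparation was stranded, but the counting is not stated to use strand. For members that overlap a gene on the opposite strand, the FPKM may therefore hold reads of either gene of the pair. Such partners within 5000 bases, looked up after values were seen, were 1010001N08Rik over the start of Gata6, at most 0.063 FPKM in WT and 13.4 to 17.7 in KO, Gm10824 over Tcf21, 0 in WT and 0.889 to 1.30 in KO, and 4833418N17Rik over the start of Bnc1, 0 in WT and 0.183 to 0.735 in KO. D030062O11Rik over Tbx18 was at 0.391 to 0.581 FPKM in WT and 0.264 to 0.298 in KO, and Gata5os over Gata5 at most 0.0142 in any library.

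The basonuclins Bnc1 and Bnc2 are paired zinc finger proteins, Bnc1 known from keratinocytes, germ cells and mesothelium and Bnc2 from skin, craniofacial mesenchyme and activated fibroblasts. They differed between the genotypes in opposite directions. Bnc1 (chromosome 7, 81966672 to 81992292, minus strand) was at 0.170 and 0.200 FPKM in WT, 0.401 and 0.200 in IL-6-treated WT, 69.5 and 69.9 in KO, and 65.6 and 64.6 in IL-6-treated KO. The WT values stand for about 30.8 to 70.6 fragments and the KO values for about 11545 to 13540. Without IL-6 the KO mean was 377 times the WT mean, and the log2 difference was 5.90 ± 0.078 (5.67 ± 0.078 with IL-6).

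Bnc2 (chromosome 4, 84275095 to 84675275, minus strand) was the highest of the 9 factors in WT. It was at 17.6 and 16.5 FPKM in WT, 17.7 and 16.7 in IL-6-treated WT, 9.56 and 9.47 in KO, and 8.87 and 7.73 in IL-6-treated KO. It was the 1 member lower in KO, at 0.557 of the WT mean without IL-6 and 0.483 with it (log2 -0.78 ± 0.072 and -0.97 ± 0.072). Its main transcript, Bnc2-202, was at 8.34 to 9.97 FPKM in WT and 3.97 to 5.62 in KO, and Bnc2-201 at 3.41 to 5.27 and 0.757 to 2.75. Both transcripts were lower in each KO library than in each WT library.

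The GATA factors bind the motif they are named for and act in endoderm, heart, gonad and the mesothelial layers. Gata6 (chromosome 18, 11052064 to 11085635, plus strand) was at 0.0887 and 0.0453 FPKM in WT, 0.0911 and 0.0930 in IL-6-treated WT, 64.0 and 63.4 in KO, and 67.1 and 70.4 in IL-6-treated KO. About 2 to 11 fragments stood behind each WT value and 6919 to 9477 behind each KO value. In IL-6-treated WT most of the FPKM came from Gata6-204, a short retained-intron transcript of 451 bases on which 1 fragment weighs more. The fitted fragments there, 2 and 4, were fewer than the 11 and 6 of untreated WT. Gata6 was higher in KO by 5.92 ± 0.056 without IL-6 and 6.00 ± 0.056 with it.

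Gata4 (chromosome 14, 63198922 to 63271692, minus strand) was low but present in WT, at 2.03 and 1.75 FPKM, and at 1.20 and 1.56 with IL-6. It was at 26.7 and 26.2 FPKM in KO and 24.9 and 25.6 in IL-6-treated KO, 14.0 and 18.3 times the WT means (log2 3.25 ± 0.086 and 3.47 ± 0.086). Its level in KO was divided over Gata4-201, Gata4-202 and Gata4-203, with 25.3, 39.6 and 34.8% in untreated KO. Gata5 (chromosome 2, 180325133 to 180334699, minus strand), the third of this group, stayed low. It was listed at 0 in 3 WT libraries and at 0.0242 FPKM, or 3 fragments, in the fourth, and at 0.182, 0.306, 0.258 and 0.254 FPKM in the 4 KO libraries, from 21 to 39 fragments. The KO libraries were all above the WT libraries for each of the 3 genes, at very different levels.

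Tcf21 (chromosome 10, 22817281 to 22820174, minus strand) encodes a basic helix-loop-helix factor needed for cardiac fibroblasts, lung and kidney mesenchyme. Like Wt1 it was listed at 0 in all 4 WT libraries, where 3 fragments equal 0.0635 to 0.07 FPKM. It was at 26.2 and 25.0 FPKM in KO and 22.2 and 25.5 in IL-6-treated KO, from about 973 to 1310 fragments (log2 difference 4.73 ± 0.081 and 4.63 ± 0.081). Transcript Tcf21-201 carried 98.9% of it in untreated KO.

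Tbx18 (chromosome 9, 87702800 to 87731260, minus strand) encodes a T-box factor of epicardium, sinus node and ureter mesenchyme. It was present in both genotypes, at 13.6 and 13.8 FPKM in WT, 14.8 and 15.1 in IL-6-treated WT, 20.8 and 20.9 in KO, and 19.9 and 21.2 in IL-6-treated KO. The KO means were 1.52 and 1.38 times the WT means (log2 0.57 ± 0.048 and 0.44 ± 0.048). Isl1 (chromosome 13, 116298281 to 116309689, minus strand), a LIM homeobox factor, was at or near 0 throughout. A single fragment was seen in 1 untreated WT library (0.0226 FPKM) and 1 untreated KO library (0.0115 FPKM), so no difference was detectable at this depth.

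**Figure D2:**
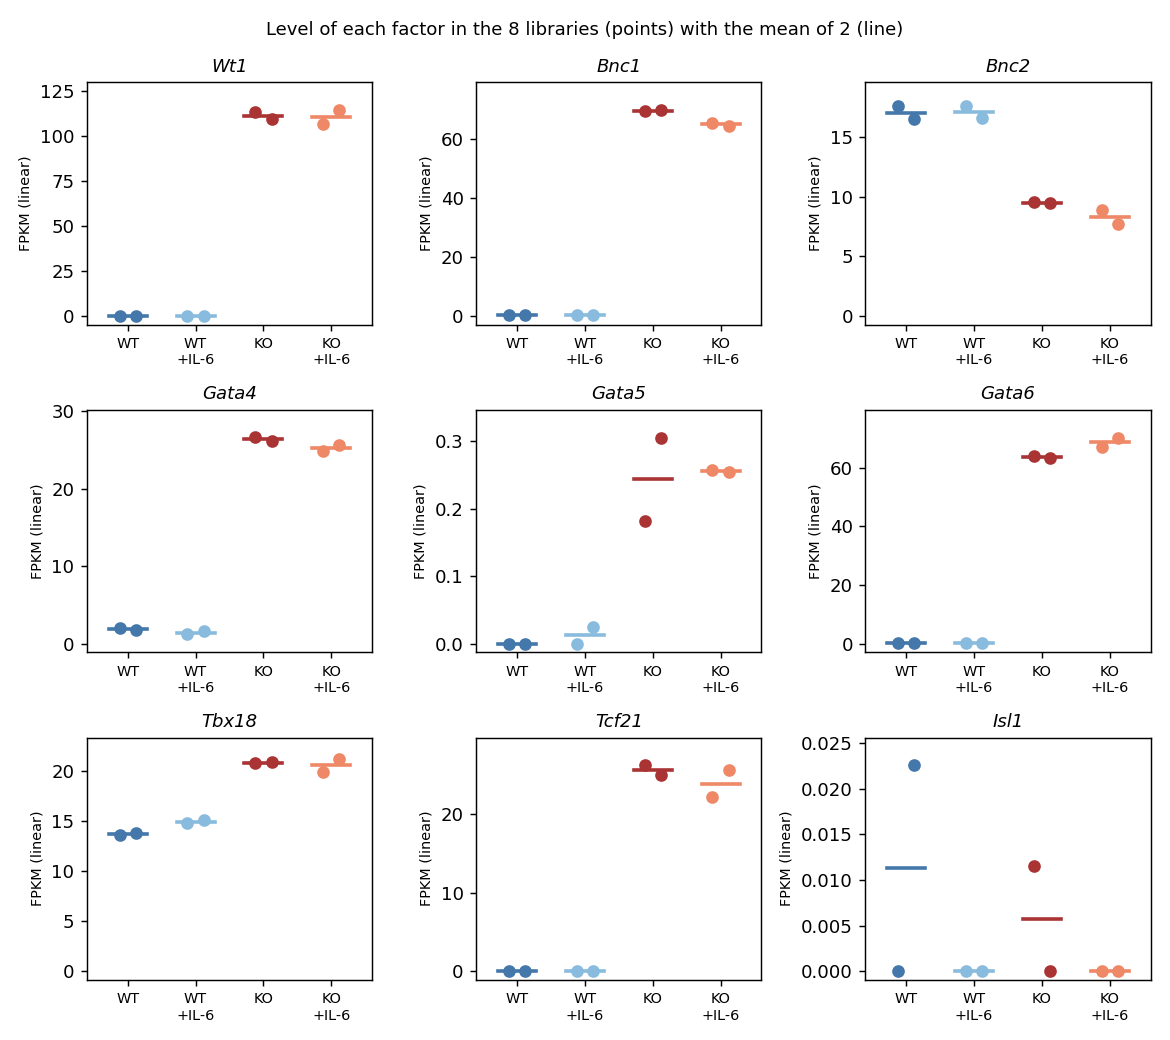
FPKM of each of the 9 factors on a linear axis of its own, with 1 point per library and a line at the mean of the 2 libraries of a group. Wt1, Bnc1, Gata4, Gata6 and Tcf21 stand at 22.2 to 114.4 FPKM in KO and at 2.03 or less in WT, Bnc2 is the factor that is lower in KO, and the axes of Gata5 and Isl1 end below 0.4 FPKM.

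Of the 7 members tested, all 7 passed limma's threshold of adjusted p below 0.05 between the genotypes in each condition, 6 higher and 1 lower in KO. So did 71.0% of all genes tested without IL-6 and 71.7% with it, and since genotype values led to the choice of members, nothing is read from their count. The 9 factors summed to 32.3 to 34.1 FPKM in the WT libraries and 315 to 330 in the KO libraries.

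FPKM is per length, so the levels of the factors can be ranked within a group. In WT the order was Bnc2, Tbx18, Gata4, Bnc1 and Gata6, with no overlap between neighbours, and then Isl1, Wt1, Gata5 and Tcf21 at or near 0, which did overlap. In IL-6-treated WT the first 5 were in the same order, again without overlap. In KO the order was Wt1, Bnc1, Gata6, Gata4, Tcf21, Tbx18, Bnc2, Gata5 and Isl1, and the neighbours Gata4 and Tcf21 overlapped. In IL-6-treated KO Gata6 stood above Bnc1, with no overlap between them in either condition, and Gata4 and Tcf21 again overlapped. Bnc2 thus stood at the top of the WT order and above Gata5 and Isl1 alone in the KO order.

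RefSeq promoter windows on GRCm38.p6, from 250 bases before to 50 after a gene's start, were found for 6 of the 9 members. Those of Bnc1 and Tcf21 are shown as members that were at or near 0 in WT and at 22.2 FPKM or more in KO, and they differ in composition. The Bnc1 window (chr7:81992250-81992549, minus strand) is 83.3% G and C, against a median of 52.7% over all windows, and the Tcf21 window (chr10:22820094-22820393, minus strand) 53.3%. Capitals mark the match to a searched motif.

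Bnc1 promoter: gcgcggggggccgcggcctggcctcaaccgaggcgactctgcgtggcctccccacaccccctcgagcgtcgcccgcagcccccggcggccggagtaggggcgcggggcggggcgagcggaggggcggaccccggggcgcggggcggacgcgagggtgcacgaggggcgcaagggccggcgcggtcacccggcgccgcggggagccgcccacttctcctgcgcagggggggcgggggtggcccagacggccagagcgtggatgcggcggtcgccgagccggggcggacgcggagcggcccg
Tcf21 promoter: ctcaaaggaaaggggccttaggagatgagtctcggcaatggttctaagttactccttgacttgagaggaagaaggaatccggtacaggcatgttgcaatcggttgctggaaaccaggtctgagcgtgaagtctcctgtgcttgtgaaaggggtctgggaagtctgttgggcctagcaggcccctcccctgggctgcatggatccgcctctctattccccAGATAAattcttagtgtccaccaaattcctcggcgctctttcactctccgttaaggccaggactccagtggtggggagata

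Both strands were searched for a GATA motif (AGATAA or TGATAA), an E-box (CAGCTG), a WT1 motif (GCGTGGGNG) and a T-box motif (AGGTGTNA), of which none contains another. Among 32851 RefSeq windows of this length, 18.6% held the GATA motif, 16.3% the E-box, 1.90% the WT1 motif and 3.03% the T-box motif. The Tcf21 window held 1 GATA match, 31 to 26 bases before the start, and the Bnc1 window held none of the 4. Of the other 4 windows, that of Isl1 held 2 GATA matches and 1 E-box and those of Bnc2, Gata5 and Tbx18 none; no GENCODE transcript starts inside the RefSeq window of Bnc2. A match is a run of letters and no evidence of binding.

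IL-6 was tested next, since the choice of members did not use it. None of the 7 tested members passed the threshold for a change with 24 h of IL-6 in WT (limma, adjusted over 13693 genes). Of all genes, 15.7% passed, 1136 rising and 1014 falling. Wt1, Tcf21, Bnc1 and Gata6 were at most 0.401 FPKM in WT. They met the filter through KO and could hardly be called here, so the share compares with Bnc2, Tbx18 and Gata4 alone. The median change of the 7, 0.01 against -0.00197 for all genes, is held near 0 by those low genes, and nothing is read from it. At an unadjusted p below 0.05 there were 2 members, Gata4 and Tbx18, and 29.2% of all genes. Gata4 differed by -0.28 ± 0.086 (95% interval -0.49 to -0.08, adjusted p = 0.0678). Both WT libraries with IL-6 were below both without it, and the estimate moved with single libraries. Without library 2 of IL-6-treated WT the limma call was made (-0.39, adjusted p = 0.0382), while without library 1 of that group Gata4 differed by -0.17 (adjusted p = 0.258) and with only the WT groups fitted the adjusted p was 0.204. Behind these values stood about 237 and 222 fragments without IL-6 and 138 and 160 with it.

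Tbx18 differed by 0.12 ± 0.048 in WT (interval 0.00 to 0.23, limma adjusted p = 0.157), again with no overlap between the libraries. Bnc1 differed by 0.13 ± 0.078 (interval -0.05 to 0.31, adjusted p = 0.321), where 1 of the 2 libraries with IL-6 was high, and by 0.02 without that library. Bnc2 differed by 0.01 ± 0.072 (interval -0.16 to 0.18). Gata6 differed by 0.03 ± 0.056 (interval -0.10 to 0.17). Its FPKM did not overlap either, but its fitted fragments were fewer with IL-6, 2 and 4 against 11 and 6 without it. The share of all genes that separated between these groups of 2 libraries was not counted. Nothing is therefore read from the separation of Gata4, Tbx18 and Gata6. For the low genes the added 1 FPKM holds the difference near 0, and Wt1 and Tcf21, at 0 in each of these libraries, give no response to compare.

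In KO, with Wt1, Bnc1, Gata4, Gata6 and Tcf21 all well expressed, again none of the 7 passed (0.0219% of all genes, 3 of 13693, did). At an unadjusted p below 0.05 there was 1 member, Bnc2, and 7.49% of all genes. Bnc2 differed by -0.18 ± 0.072 (interval -0.35 to -0.01, limma adjusted p = 0.637), with both IL-6 libraries below both untreated ones. This also held for Bnc1 and Gata4, and for Gata6 both IL-6 libraries were above. Groups of 2 libraries can separate without a change. The share of all genes that did so was not counted, so nothing is read from these separations. The difference of Bnc2 was -0.09 without library 2 of IL-6-treated KO and -0.27 without library 1. Wt1 differed by -0.01 ± 0.057 (interval -0.14 to 0.12, limma adjusted p = 0.987). The spread behind these intervals is pooled over the 4 groups. Wt1 and Tcf21, at 0 in every WT library, add none there, so their intervals in KO may be too narrow. Gata6 differed by 0.11 ± 0.056 (interval -0.02 to 0.24), Bnc1 by -0.10 ± 0.078 (-0.28 to 0.09), Tcf21 by -0.10 ± 0.081 (-0.29 to 0.09), Gata4 by -0.06 ± 0.086 (-0.27 to 0.14) and Tbx18 by -0.02 ± 0.048 (-0.13 to 0.10). Missing the threshold does not show that these levels were equal. Each interval ends within 0.35 of 0 on the log2 scale, with the limit just given for Wt1 and Tcf21.

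The difference between the IL-6 changes in KO and WT was tested as an interaction. None of Bnc2, Tbx18 and Gata4 passed, against 6.06% of all genes, and none had an unadjusted p below 0.05, against 21.3% of all genes. The other tested members did not pass either, but their WT side could hardly move. For Wt1 and Tcf21, at 0 in WT, the difference is the KO change alone. Over the 7 the differences (KO minus WT) ran from -0.23 ± 0.11 for Bnc1 (limma adjusted p = 0.291) to 0.22 ± 0.12 for Gata4 (adjusted p = 0.356). With 0.1 FPKM added instead of 1, the difference was -0.55 for Bnc1 and -0.11 for Gata6, which was 0.07 before.

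**Figure D3:**
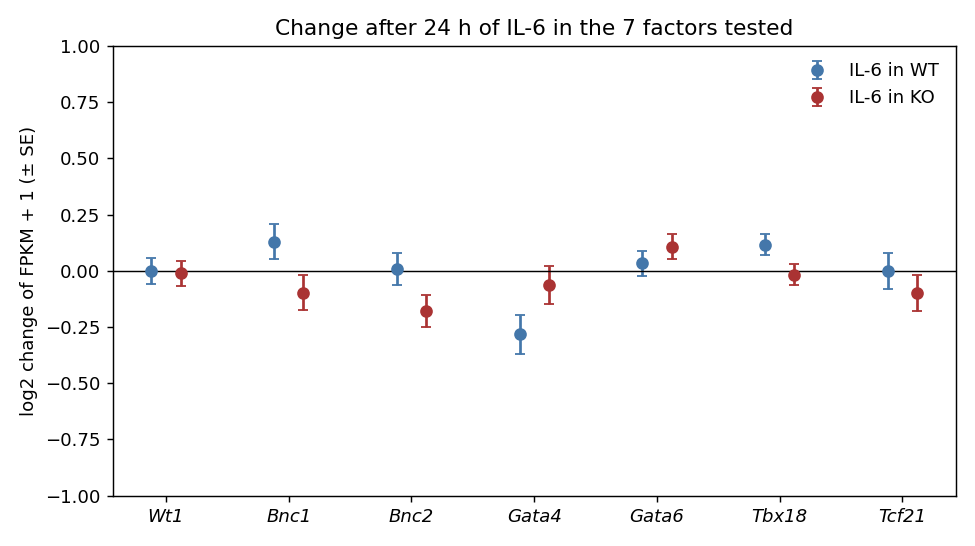
Change of log2(FPKM + 1) after 24 h of IL-6 in WT and in KO for the 7 factors tested; points are limma estimates and bars are ± 1 SE. All points lie between -0.28 (Gata4 in WT) and 0.13 (Bnc1 in WT), and none passed the adjusted threshold. Wt1 and Tcf21 were listed at 0 in every WT library, so their WT points show no response. Bnc1 and Gata6, at most 0.401 FPKM in WT, could hardly move there.

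Factors that act with or beside the members were mixed between the genotypes. Of 35 such partner factors 27 were tested, and between KO and WT without IL-6 10 were called higher and 13 lower, 85.2% against 71.0% of all genes, with a median log2 difference of -0.08 against 0.01 for all genes. With IL-6, 10 were higher and 14 lower (median -0.45 against 0.01). Large differences were those of Osr2, a zinc finger factor of limb, palate and kidney mesenchyme, Hand2, a helix-loop-helix factor of limb and heart, and Zfpm1, the GATA cofactor FOG1.

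Osr2 was at 52.8 to 58.4 FPKM in WT and at most 0.0212 in KO (log2 -5.82 ± 0.061 without IL-6). Hand2 was at 33.4 to 37.3 FPKM in WT and 0.923 to 1.26 in KO (-4.17 ± 0.082). Zfpm1 was the one of these 3 that was higher in KO, with 2.84 to 3.47 FPKM in WT and 51.1 to 60.1 in KO (3.69 ± 0.069). Other partners, named after their values were seen for their direct link to a member, also split. Zfpm2, the cofactor FOG2, was at 9.64 to 11.3 FPKM in WT and 16.0 to 17.9 in KO. Tbx20, a cardiac T-box factor, was at most 0.0194 FPKM in WT and at 7.31 to 8.75 in KO. Of the E proteins that pair with TCF21, Tcf4 was at 80.2 to 90.2 FPKM in WT and 9.63 to 12.5 in KO, Tcf3 at 95.5 to 103.5 and 60.3 to 68.4, and Tcf12 at 71.4 to 92.4 and 44.3 to 48.9. All 3 E protein genes were lower in each KO library than in each WT library, while Tcf21 itself was higher. Foxf1, a forkhead factor of visceral mesoderm, was at 1.65 to 2.17 FPKM in WT and 1.52 to 1.99 in KO, which overlapped.

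With IL-6 in WT, 2 of the 27 partner factors rose and 1 fell, 11.1% against 15.7% of all genes, with a median change of -0.08. Tcf12 fell by 0.32 ± 0.047 (limma adjusted p = 0.00431), from 90.4 and 92.4 to 71.4 and 74.2 FPKM. Osr1, which marks intermediate and lateral mesoderm, rose by 0.40 ± 0.071 (adjusted p = 0.0100), but not past the threshold without untreated library 2 (0.0558) or library 2 with IL-6 (0.0641). Nr2f2, an orphan nuclear receptor of mesenchyme, rose by 0.39 ± 0.084 (limma adjusted p = 0.0228), a call lost with no filter (0.0657). The call was also lost without any 1 of the 4 WT libraries (differences 0.36 to 0.41). No partner factor passed in KO or in the difference between genotypes, where 2 and 6 had an unadjusted p below 0.05, against 7.49 and 21.3% of all genes.

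Other mesothelial markers were higher in KO without exception among those tested. All 22 tested of 24 were called higher in both conditions, against 71.0 and 71.7% of genes called in either direction, with median log2 differences of 4.06 and 4.31. These markers were listed with the same earlier results known, so their direction is not independent evidence. Of the 24, 22 were at 1 FPKM or more in all 4 KO libraries and 6 in all 4 WT libraries, and their sum was 74.0 to 89.1 FPKM in WT and 2505 to 2575 in KO. The largest differences were those of Upk3b and Upk1b, uroplakins of mesothelium and urothelium, Gpm6a, a membrane glycoprotein, and Aldh1a1, which makes retinoic acid.

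Upk3b was at most 0.0368 FPKM in WT and at 497 to 535 in KO (log2 8.99 ± 0.042 without IL-6). Upk1b was at most 0.0146 and at 327 to 341 (8.38 ± 0.045), Gpm6a at most 0.00812 and at 281 to 289 (8.15 ± 0.043), and Aldh1a1 at most 0.187 and at 268 to 285 (7.96 ± 0.049). The markers of the list that did not reach the test were Calb2, listed at 0 in all 4 KO libraries, and Dmkn, at most 0.308 FPKM.

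**Figure D4:**
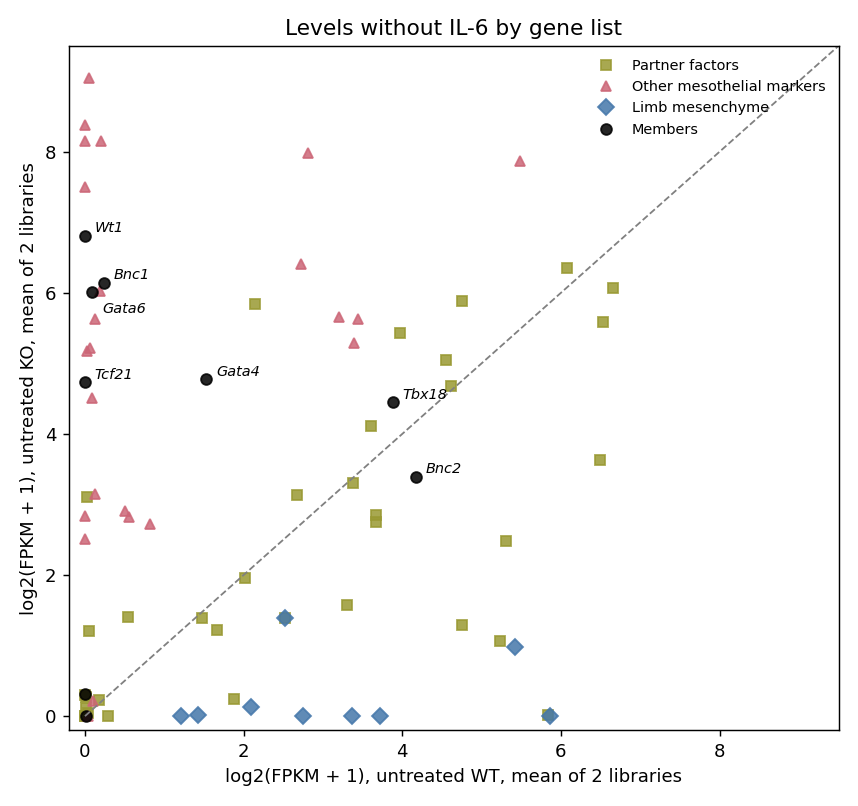
Mean log2(FPKM + 1) of 2 untreated KO libraries against that of 2 untreated WT libraries for the 9 factors, the partner factors, the other mesothelial markers and the limb mesenchyme markers, with a dashed line at equal levels. The 22 tested mesothelial markers lie above the line, the 9 limb markers below it, and the partner factors on both sides; Wt1, Gata6, Bnc1, Tcf21, Gata4 and Tbx18 lie above and Bnc2 below.

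With IL-6 in WT, 1 of the 22 mesothelial markers rose and 4 fell, 22.7% against 15.7% of all genes. Only 6 of the 24 listed were at 1 FPKM or more in all 4 WT libraries. Most of the rest met the filter through KO and had little room to change in WT, so nothing is read from this share. Aldh1a1, among those that fell, went from 0.187 and 0.110 to 0.0135 and 0 FPKM (limma adjusted p = 0.0419). Cdh3, which encodes P-cadherin, fell by 0.73 ± 0.066 (limma adjusted p = 0.000503), from 6.02 and 5.18 to 3.07 and 2.87 FPKM. Clu, the secreted chaperone clusterin, rose by 0.35 ± 0.048 (adjusted p = 0.00353). Msln, mesothelin, fell by 0.32 ± 0.064 (limma adjusted p = 0.0176), a call lost with no filter (0.0593) and with only the WT groups fitted (0.0945). The call was also lost without untreated library 1 (difference -0.22) and without library 1 (-0.28) or 2 (-0.35) with IL-6. Sulf1, a heparan sulfatase, fell by 0.24 ± 0.053 (limma adjusted p = 0.0233), a call lost with only the WT groups fitted (0.139). The call was also lost without either untreated library (differences -0.22 and -0.26) or without library 1 with IL-6 (-0.18). None passed in KO, where 1 had an unadjusted p below 0.05, against 7.49% of all genes. Cdh3 was the 1 marker whose changes differed between genotypes, by 0.62 ± 0.094 (limma adjusted p = 0.0114; 0.0514 without untreated KO library 1 and 0.0547 without library 2 of IL-6-treated KO).

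Genes reported elsewhere as WT1 targets went both ways between the genotypes. Of 16 tested of 18, 10 were called higher and 5 lower in KO in each condition, 93.8% against 71.0 and 71.7% of all genes, with medians of 0.85 without IL-6 and 0.91 with it. Podxl, the podocyte and mesothelial surface protein podocalyxin, was at most 0.109 FPKM in WT and at 47.6 to 49.4 in KO (5.49 ± 0.056 without IL-6). Wnt4, a gonad and kidney signal, was at most 0.117 and at 9.18 to 11.5 (3.23 ± 0.077), and Aldh1a2, the main retinoic acid enzyme of epicardium, at most 0.0359 and at 5.73 to 6.56 (2.83 ± 0.087). Vdr, the vitamin D receptor, was at 0.959 to 1.48 FPKM in WT and 13.7 to 15.2 in KO (2.89 ± 0.077 with IL-6). Ccl5, a chemokine, was at 526 to 596 FPKM in WT and 25.6 to 31.8 in KO (-4.28 ± 0.079 without IL-6). Podxl, Aldh1a2 and Cdh1 also stand in the mesothelial list.

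With IL-6 in WT, 1 of these 16 genes rose and 2 fell, 18.8% against 15.7% of all genes. Of the 18 listed, 9 were at 1 FPKM or more in all 4 WT libraries. Podxl, Wnt4, Aldh1a2 and Cdh1, at most 0.527 FPKM there, met the filter through KO and had little room to change. Areg, the EGF receptor ligand amphiregulin, rose from 0.0714 and 0.266 to 1.44 and 1.69 FPKM (1.14 ± 0.17, limma adjusted p = 0.00498). Spry1, a receptor kinase antagonist, fell from 2.14 and 2.54 to 1.24 and 1.03 FPKM (-0.64 ± 0.088, adjusted p = 0.00340). Bcl2, an inhibitor of cell death, fell by 0.30 ± 0.082 (limma adjusted p = 0.0469), a call lost with the replicate block (0.0796). The call was also lost with no filter (0.0665), with quantile normalization (0.0911) and with only the WT groups fitted (0.0588). Leaving out any 1 of the 8 libraries lost it too (differences -0.27 to -0.34). In KO none of the 16 passed, against 0.0219% of all genes, and 4 had an unadjusted p below 0.05, against 7.49% of all genes. The part of Wt1 in these changes was not tested. The IL-6 change of Areg was lower in KO than in WT by 1.18 ± 0.24 (adjusted p = 0.0344), a call lost on leaving out any library but the 1 labelled library 1 of IL-6-treated KO (0.0590 to 0.104) and with the replicate block (0.0598).

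Markers of other cell types were read beside the members. All 15 fibroblast markers were at 1 FPKM or more in every WT library and 13 in every KO library, with sums of 4239 to 4862 FPKM in WT and 5330 to 5591 in KO. The list did not move as one. Col1a1, Col3a1, Fn1 and Dcn were higher in KO without IL-6, Col1a2 was not called, and the other 10 were lower. Postn, a matrix protein gene, was at 472 to 520 FPKM in WT and 7.75 to 10.4 in KO, Prrx1, a mesenchymal homeobox gene, at 155 to 166 and 17.7 to 19.5, Pdgfrb at 48.1 to 50.3 and 6.97 to 7.40, and Pdgfra at 33.1 to 52.4 and 7.62 to 8.85. Thy1, at 2.61 to 3.49 FPKM in WT, was at 0.414 to 0.919 in KO, and Lum, at 3.19 to 3.68, was at 0.150 to 0.321. Of the 15, 93.3% were called between the genotypes without IL-6, against 71.0% of all genes. With IL-6 in WT 9 of the 15 changed, 3 up and 6 down, against 15.7% of all genes.

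The 9 limb mesenchyme markers went opposite to most members. All 9 were at 1 FPKM or more in every WT library and 1, Lhx2, in every KO library, and their sum was 118 to 145 FPKM in WT and 2.41 to 2.82 in KO. Pitx1, a hindlimb homeobox factor, was at 43.7 to 62.9 FPKM in WT and listed at 0 in KO, and Lmx1b, a dorsal limb factor, was likewise listed at 0 in KO. The part of tissue of origin in the genotype difference of the members was not tested.

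Lists of other lineages were higher in KO through a few genes each. The heart muscle list summed to 0.136 to 0.393 FPKM in WT and 12.7 to 18.9 in KO, nearly all from Tnnt2 (11.0 to 17.3). Myl7 was at most 0.0612 FPKM in WT and at 0.726 to 1.69 in KO, both tested genes of this list were called higher, and Myh6, Actn2 and Nppa were at most 0.0662 in KO. The endoderm list summed to at most 0.0265 FPKM in WT and 17.6 to 19.5 in KO, from Foxa2 (17.6 to 19.4), with Sox17 and Hnf4a at 0. Endothelial markers summed to 0.0764 to 0.181 FPKM in WT and 10.8 to 12.0 in KO, from Tek and Kdr, both called higher, with Pecam1 at most 0.0638 and Cdh5 at most 0.00704 in KO. Epithelial markers summed to 0.618 to 1.20 in WT and 6.32 to 6.79 in KO, from Cdh1, with Krt5 at 0 and Epcam overlapping between WT and KO (0.421 to 0.662 and 0.487 to 0.636).

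The remaining lists of 5 genes each went either way. Haematopoietic markers summed to 2.27 to 3.07 FPKM in WT and 1.67 to 2.22 in KO, mostly Cd68, with Adgre1 at 0. Sertoli and granulosa markers, of the gonad cells in which Wt1 and Gata4 are also known, summed to 1.68 to 2.82 in WT and 0.947 to 1.22 in KO, with Fshr at 0 in all libraries and Foxl2 at 0 in KO. Podocyte markers, of the kidney cells that keep Wt1, summed to 44.9 to 47.9 in WT and 104 to 112 in KO, through Podxl and Synpo. Neural markers summed to 38.2 to 48.0 in WT and 24.9 to 29.7 in KO, and skeletal muscle markers to at most 0.200 in WT and 0.366 to 0.749 in KO, through Des (at most 0.0382 and 0.366 to 0.582). The part of any of these cell types in the levels of the members was not tested.

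Genes whose profile over the 8 libraries was most like that of a member were found by the root-mean-square difference of centred log2 values among 13692 other genes. The 4 WT and 4 KO libraries that chose the members also make up these profiles, so the likeness is a description. Nearest to Wt1 were Tmem108 (0.0753) and Ptgis (0.119), to Bnc1 Sgce (0.0785) and Scel (0.0882), and to Tcf21 Ptprb (0.0289) and Plxna4 (0.0844). Sgce, an imprinted sarcoglycan gene, was listed at 0 in WT and at 52.6 to 54.5 FPKM in KO, and Scel, sciellin of cornified epithelium, at most 0.0205 and at 53.7 to 57.4.

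Nearest to Gata6 were Xist (0.0478) and Cadm1 (0.0582), a cell adhesion gene, and to Gata4 Nfe2l3 (0.0687) and Foxo6 (0.0756), transcription factor genes. Xist, near 0 in WT as given above, thus had the profile most like that of Gata6. The members with small differences had neighbours with small differences, Slc35e3 (0.0502) and 4930466K18Rik (0.0513) for Bnc2 and Ube2e3 (0.0281) and Pfdn2 (0.0292) for Tbx18.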

How the data were processed

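RNA was measured in 8 libraries, 2 for each of 4 groups, and the depth fitted to low values was 37200000 to 46900000 fragments. The authors deposited FPKM of single transcripts. HISAT2, Cufflinks 2.2.1 and the build GRCm38.p6 are named in the submitters' processing notes. RNeasy isolation of total RNA and stranded TruSeq mRNA preparation are given per the labels' protocols. FPKM of 142869 transcripts were summed to 55358 genes by name. Groups came from the labels.

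The 13693 genes that reached 1 FPKM in at least 2 libraries were tested on log2(FPKM + 1) with limma 3.58.1 (R 4.3.3). The model held 4 group means and 4 residual degrees of freedom, variances were moderated with an intensity trend, and p-values were adjusted by Benjamini-Hochberg. A call is an adjusted p below 0.05. Log2 differences understate the change of low genes. For a gene at 0 in every WT library the WT groups add no spread, so its SE may be too small. Python 3.11.15, pandas 2.3.3, numpy 2.4.6 and matplotlib 3.10.9 read the files and drew the figures. Coordinates and transcript structures are from GENCODE M21 on GRCm38, in which every transcript of the members was found, and promoters from RefSeq. The depth fit gave a mean fragment of 180 bases and placed 92.5 to 94.5% of 1313 to 1565 low values per library within 0.1 of a whole fragment.

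Members, gene lists and the naming rule were chosen with earlier results of these data known. The rule names every member and, from the partner, mesothelial and WT1 target lists, up to 4 called genes per list with the smallest p in an IL-6 comparison or the largest difference in a genotype comparison. It also names the 2 genes most like each member and transcripts holding at least 10% of a member. A gene that the rule names is not reported here. Alternatives were a pseudocount of 0.1, no filter, quantile normalization, median-ratio scaling over genes of at least 5 FPKM, no trend, the replicate block, fitting the compared groups alone, and leaving out each library.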

Additional observations from a re-analysis of the deposited data

Results flagged for a closer look

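For 2 genes of the lists the IL-6 change differed between KO and WT by limma's interaction test. The difference (KO minus WT) was -1.18 for Areg (adjusted p = 0.0344). Areg was at 0.466 and 0.211 FPKM in KO and 0.480 and 0.123 in IL-6-treated KO, at or below 0.5 FPKM in each of these libraries. The call was lost with a pseudocount of 0.1 (-2.95, adjusted p = 0.0879), where its size grew, and with no filter (adjusted p = 0.0930).

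The difference was 0.62 for Cdh3 (adjusted p = 0.0114). Cdh3 was at 82.5 and 85.3 FPKM in KO and 77.2 and 78.3 in IL-6-treated KO, so its levels in KO lay far above those in WT. No member was among the genes whose IL-6 changes differed, but Wt1 and Tcf21, at 0 in WT, had no WT change to compare.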

How the results depend on the processing

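Leaving out 1 library at a time gave 0 to 1 members called for IL-6 in WT, the 1 being Gata4 without library 2 of IL-6-treated WT, and 0 members for IL-6 in KO and for the difference. The 7 tested members were called between genotypes in each of these fits. Without a filter, 8 of 9 members were called between genotypes in both conditions. Of the 27454 genes in that fit, 11044 were called without IL-6 and 10987 with it. With the replicate block the members called were 0, 0, 0, 7 and 7 over the 5 comparisons. The replicate numbers share only a number: differences between libraries 1 and 2 correlated between groups at -0.0973 to 0.0549. Over all genes the block gave 1696 calls for IL-6 in WT, 2 in KO and 564 for the difference, against 2150, 3 and 830. For IL-6 in WT 938 genes were called when only the WT groups were fitted and 1165 to 1312 without 1 WT library. For IL-6 in KO no filter gave 7 calls, no trend 2, a fit of only the KO groups 0, and leaving out a library 0 (untreated KO library 2) to 4. For the difference no filter gave 521 and leaving out a library 383 to 523. In the filtered fits with 2 libraries per group, calls between genotypes stayed within 9453 to 9839 of 13693 genes. Of 1056 single-gene values, 1006 kept sign and call, 40 lost a call and 1 gained one. Another 9, none called, changed sign, in 5 results: Bnc2 for IL-6 in WT (0.01; -0.03 without untreated library 2 or treated library 1, -0.00301 with median-ratio scaling), Tbx18 in KO, Wt1 in KO and in the difference (-0.01; up to 0.04), and Gata6 in the difference (0.07; -0.11 with a pseudocount of 0.1). The 2 libraries per group limit precision, and a gene listed at 0 in WT gives no IL-6 response to test.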
